A study of Mus musculus with 16 samples.

Results

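Mesangial cells are the contractile cells that hold the capillary loops of the glomerulus together. A list of 10 genes, named mesangial and contractile smooth muscle genes, was examined here: Acta2, Tagln, Myl9, Cnn1, Des, Pdgfrb, Pdgfra, Itga8, Gata3 and Rhoc. The arrays do not show which cells the RNA of a listed gene came from, and none was shown to be confined to mesangial cells. A gene was measured where a probeset was annotated to its symbol and to no other, and the probeset with the highest mean over the 16 arrays was taken. By that rule 8 of the 10 genes had values, among 30142 genes measured in the same way. Pdgfra shares its probeset with a microRNA gene, and Gata3 shares its own with a non-coding transcript, so neither has a value here.

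Mesangial cells are pericyte-like. They depend on platelet-derived growth factor B from the endothelium, which acts through the receptor encoded by Pdgfrb, and they attach to matrix through integrin alpha 8, encoded by Itga8. At rest they make little smooth muscle actin. In glomerulonephritis they can take on an activated, myofibroblast-like form with actin stress fibres, in which genes driven by serum response factor and its myocardin-related cofactors are switched on. Acta2 and Tagln are textbook markers of that form.

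RNA came from glomerular extracts of the renal cortex of 16 female mice, with 1 array per mouse. Wild-type mice were C57Bl/6, and the knockout mice, labelled B6.ER⍺KO, lacked oestrogen receptor alpha on that background. Sheep nephrotoxic serum, an antiserum raised against glomeruli, was injected intraperitoneally at 8 ul per g body weight. For both genotypes, 2 mice without serum and 2 mice at each of 18 hours, 6 days and 2 weeks after it were used. The labels state neither the ages of the mice nor which part of the receptor gene was removed. The untreated arrays are the shared controls of every comparison over time, so those comparisons are not independent. In such whole-tissue extracts, fewer cells of a type and less RNA per cell cannot be told apart.

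Values are given as deposited, in log2 units with a transformation that is not stated, so differences are not folds of RNA and the level of one gene cannot be set against that of another. With 2 arrays in a group, their number sets the precision. Esr1, the receptor's own gene, read 6.35 to 7.53 on wild-type arrays and 7.11 to 7.64 on knockout arrays, so it was not lower in the knockout. Its probeset may lie outside the deleted part and then does not check the deletion. At 18 hours the array numbered 2 in each genotype carried the pattern of the other genotype. Abcc3, a transporter gene that separates the genotypes when untreated, read 13.09 and 6.25 on the wild-type pair and 6.50 and 12.93 on the knockout pair. Esr1 read 7.53 on the wild-type and 7.11 on the knockout array numbered 2 at 18 hours. On the other arrays it read 6.35 to 7.04 in wild type and 7.29 to 7.64 in the knockout, without overlap. The knockout 2-week array numbered 1 also stood apart, since Havcr1, a tubular injury gene, read 7.17 there and 12.77 on its partner, and for 556 genes the pair was over 2 log2 units apart. Groups below are those of the labels. Results that rest on these 3 arrays are also given without them, from fits of 14 arrays (without the 18-hour arrays numbered 2) and of 13 arrays (also without that knockout 2-week array).

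**Figure D1:**
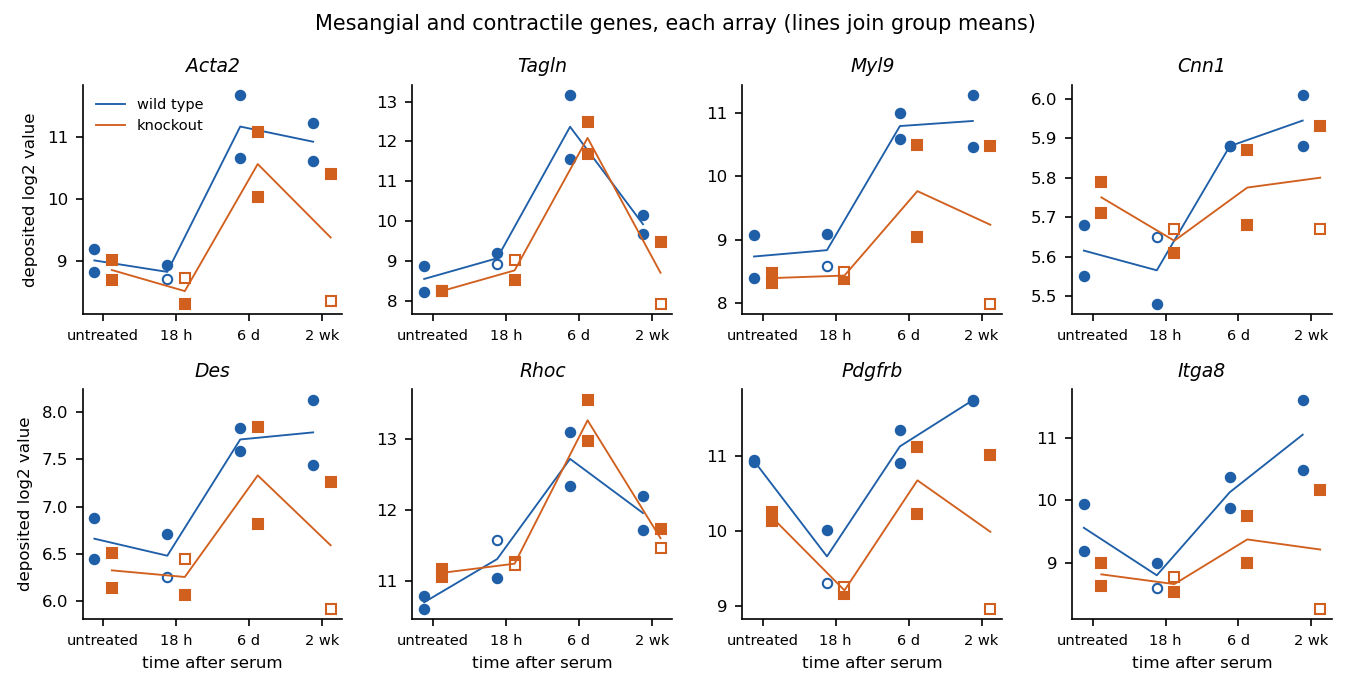
Deposited log2 value of each of the 8 measured genes on each array (y axis, scaled separately for each gene) by time after serum (x axis). Circles are wild-type arrays, squares knockout arrays, lines join the means of 2 arrays, and open symbols mark the 18-hour arrays numbered 2 and the knockout 2-week array numbered 1. Acta2, Tagln and Rhoc were higher on all 4 arrays at 6 days than on any untreated array, and the open square at 2 weeks is the lowest of the 16 arrays for Tagln, Myl9, Des, Pdgfrb and Itga8.

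At 6 days after serum the actin-binding gene Tagln and the small GTPase gene Rhoc were higher in both genotypes. With both genotypes averaged, 2 of the 8 genes rose and none fell. The other 6 had differences above 0 that did not pass. Over all 30142 genes 268 were called (0.889%), of which 207 were higher (0.687%). The median difference of the 8 genes was 1.37 log2 units, against 0.01 over all genes. Called means a limma adjusted p (Benjamini-Hochberg, all genes) below 0.05. Of the 8 genes 5 had an unadjusted p under 0.05, as did 12.9% of all genes. Those without overlap between 6 days and untreated were 3, all higher (7.38% of all genes). In wild type alone none of the 8 was called (0.0% of genes), and 6 had an unadjusted p under 0.05 (6.99% of genes). In the knockout none of the 8 was among the 4 genes called (0.0133%), and 4 had an unadjusted p under 0.05 (7.46%).

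Acta2 encodes smooth muscle alpha actin, the filament of the contractile apparatus. On wild-type arrays it read 9.19 and 8.83 untreated, 8.94 and 8.71 at 18 hours, 10.66 and 11.68 at 6 days, and 11.23 and 10.62 at 2 weeks. On knockout arrays it read 8.69 and 9.02, 8.31 and 8.72, 10.04 and 11.09, and 8.36 and 10.40 at the same times. The 4 arrays at 6 days lay above the 4 untreated arrays without overlap, and at 2 weeks the first knockout array lay below all untreated ones. The difference at 6 days was 1.93 ± 0.41 (SE), which did not pass over 16 arrays (limma adjusted p = 0.057) and passed over 13 arrays (adjusted p = 0.016). The pooled SD between replicates was 0.67, and of the steps between neighbours in the order of the 8 group means, that from knockout 6 days to knockout 2 weeks alone exceeded it.

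Tagln encodes transgelin, which cross-links actin filaments in smooth muscle and activated fibroblasts. It read 8.87 and 8.22 on untreated wild-type arrays, 9.20 and 8.93 at 18 hours, 11.57 and 13.17 at 6 days, and 10.16 and 9.68 at 2 weeks. The knockout values were 8.25 and 8.23, 8.51 and 9.01, 11.69 and 12.49, and 7.92 and 9.48. All 4 arrays at 6 days stood above the other 12, with a gap from 10.16 to 11.57. The rise at 6 days was 3.84 ± 0.40 (limma adjusted p = 0.0073), 3.82 ± 0.56 in wild type and 3.85 ± 0.56 in knockout. Within a genotype neither passed (adjusted p = 0.16 and 0.071). Without either knockout 2-week array Tagln passed in each genotype, as did Rhoc, against 0.139% of all genes in wild type and 0.664% in the knockout. In the knockout both also passed without either wild-type 6-day array (0.0365%). The response of Tagln in the knockout minus that in wild type was 0.03 ± 0.79 (95% interval −1.71 to 1.77). The averaged call held over 14 arrays (adjusted p = 0.041) and 13 arrays (adjusted p = 0.0054). It was lost without the second untreated wild-type array (adjusted p = 0.057). At 2 weeks the difference from untreated was 0.92 ± 0.40 (adjusted p = 0.15), and the drop between 6 days and 2 weeks was not tested.

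Myl9 encodes the regulatory light chain of smooth muscle myosin, whose phosphorylation drives contraction. Wild-type values were 9.07 and 8.40 untreated, 9.09 and 8.58 at 18 hours, 10.58 and 11.00 at 6 days, and 10.46 and 11.28 at 2 weeks. Knockout values were 8.31 and 8.48, 8.38 and 8.49, 9.04 and 10.49, and 7.99 and 10.48. In wild type the treated arrays of 6 days and 2 weeks all lay above the untreated ones, whereas the knockout pairs at both times were more than 1 unit apart. The difference at 6 days, 1.71 ± 0.48, did not pass over 16 arrays (limma adjusted p = 0.13) and passed over 13 (adjusted p = 0.035).

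Cnn1 encodes calponin, an actin-binding inhibitor of myosin found in differentiated smooth muscle. Its 16 values lay between 5.48 and 6.01, a range of 0.53, and its mean was above that of 46.4% of the genes measured. The difference at 6 days was 0.14 ± 0.08 (limma adjusted p = 0.56) and at 2 weeks 0.19 ± 0.08 (adjusted p = 0.16), so no change of Cnn1 passed in any comparison.

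Serum response factor binds the CArG box. The 250 bases before each RefSeq start (GRCm38.p6) were searched for it on both strands, which read alike for this motif. A CArG box stood in 482 of 32851 promoters (1.47%), and a match with at most 1 base off in 6117 (18.6%). Promoters were given for 8 of the 10 genes, all but Tagln and Pdgfrb. Myl9 held a CArG box, and Acta2 and Myl9 also held matches with 1 base off. None was found for Cnn1, Des, Itga8, Rhoc, Pdgfra or Gata3 in this window. The windows of Acta2 and Myl9 are shown because these are the ones among the 8 promoters searched that hold a match, given in capitals:
Acta2 chr19:34255438-34255467 (minus strand, 84 bases before the start, 1 base off): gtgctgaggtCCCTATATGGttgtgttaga
Acta2 chr19:34255388-34255417 (minus strand, 34 bases before the start, 1 base off): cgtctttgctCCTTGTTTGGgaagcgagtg
Myl9 chr2:156775293-156775322 (plus strand, 161 bases before the start): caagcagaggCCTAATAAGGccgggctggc
Myl9 chr2:156775355-156775384 (plus strand, 99 bases before the start, 1 base off): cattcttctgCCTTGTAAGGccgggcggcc
Vcl chr14:20929161-20929190 (plus strand, 227 bases before the start): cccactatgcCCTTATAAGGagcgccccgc
Vcl, the gene of the adhesion protein vinculin, is included as one example of the 4 genes with a CArG box among 16 serum response factor cofactors and targets with a promoter given. The others were Srf, Fhl2 and Filip1l, and 9 of the 16 held a CArG box or a match with 1 base off. These are counts of genes, some with several promoters, whereas 1.47% and 18.6% are shares of promoters. A match describes the sequence and does not show binding.

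Rhoc encodes a small GTPase that acts on actin assembly. It read 10.61 and 10.79 on untreated wild-type arrays, 11.04 and 11.58 at 18 hours, 12.34 and 13.11 at 6 days, and 11.72 and 12.20 at 2 weeks. In the knockout it read 11.06 and 11.17, 11.27 and 11.22, 12.98 and 13.56, and 11.47 and 11.74. Every array at 6 days lay above the 12 others, and every array at 2 weeks lay above the 4 untreated ones. The rise at 6 days was 2.09 ± 0.21 (limma adjusted p = 0.0073) and held over 14 arrays (adjusted p = 0.041) and 13 arrays (adjusted p = 0.0063). Like that of Tagln, it was lost without the second untreated wild-type array (adjusted p = 0.057). The rise was 2.02 ± 0.30 in wild type and 2.16 ± 0.30 in the knockout (adjusted p = 0.16 and 0.069), with a difference between them of 0.13 ± 0.42. The pooled SD of 0.31 was the smallest of the 8 genes after Cnn1, and 4 of the steps between neighbouring group means exceeded that SD.

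Des encodes desmin, the intermediate filament protein of muscle, which mesangial cells and injured podocytes also make. It read 6.88 and 6.44 on untreated wild-type arrays, 7.59 and 7.83 at 6 days, and 7.44 and 8.13 at 2 weeks, against 6.14 and 6.51, 6.82 and 7.84, and 5.92 and 7.26 in the knockout. The wild-type arrays at both times lay above their untreated pair, and 1 knockout array at each time was within 0.50, the pooled SD, of the untreated range. The 6-day difference of 1.03 ± 0.31 did not pass (limma adjusted p = 0.16).

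Leaving out either knockout 2-week array raised the number of the 8 genes called at 6 days from 2 to 5, with Acta2, Myl9 and Des added, and the share of all genes called to 3.31% without the first and 3.32% without the second, although those arrays are not part of that comparison. They enter through the spread that all groups share. Over 13 arrays 4 were called, against 2.67% of all genes.

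**Figure D2:**
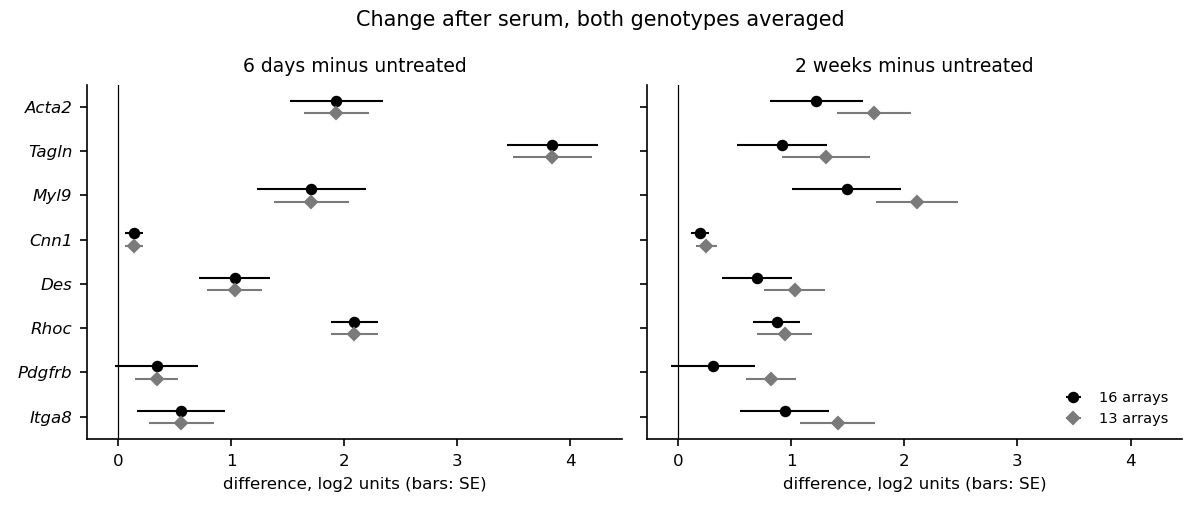
Difference from untreated in log2 units with its standard error (x axis), both genotypes averaged, for each gene (y axis) at 6 days and at 2 weeks. Black circles are the fit of 16 arrays and grey diamonds that of 13 arrays. At 6 days Tagln stood at 3.84 and Rhoc at 2.09, and at 2 weeks all 8 differences were larger over 13 arrays than over 16.

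At 2 weeks all 8 genes had differences above 0, and the first knockout array decided how many were called. Rhoc alone rose with both genotypes averaged, by 0.87 ± 0.21 (limma adjusted p = 0.031), while 2815 of 30142 genes were called (9.34%), 1536 of them higher (5.1%) and 1279 lower (4.24%). Of the 8 genes 7 had an unadjusted p under 0.05, as did 30.2% of all genes. The median difference of the 8 genes was 0.90, against 0.09 over all genes. Without the first knockout 2-week array 7 of the 8 were called, all but Cnn1 (adjusted p = 0.060), against 20.5% of all genes. Myl9 then rose by 2.11 ± 0.34, Acta2 by 1.73 ± 0.31, Itga8 by 1.41 ± 0.31, Tagln by 1.31 ± 0.37, Des by 1.03 ± 0.27, Rhoc by 0.94 ± 0.23 and Pdgfrb by 0.82 ± 0.23. Over 13 arrays the same 7 genes were called, against 19.3%. Over 14 arrays none was, and Rhoc had an adjusted p of 0.056. The call of Rhoc was also lost without any one of 6 single arrays: either untreated array of either genotype, the second wild-type or the second knockout 2-week array (highest adjusted p = 0.10).

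In wild type alone, the 2-week values of all 8 genes lay above the untreated pair, as did those of 39.1% of all genes. Rhoc rose by 1.26 ± 0.30 (limma adjusted p = 0.032), and it was the only one of the 8 called, where 8.04% of all genes were, 4.81% higher and 3.23% lower. An unadjusted p under 0.05 was reached by 7 of the 8, and by 30.8% of all genes. Myl9 differed by 2.13 ± 0.68 (adjusted p = 0.074), Acta2 by 1.91 ± 0.58 (adjusted p = 0.065) and Itga8 by 1.48 ± 0.55 (adjusted p = 0.11). Without either one of the knockout 2-week arrays, 5 were called, Acta2, Myl9, Des, Itga8 and Rhoc, against 15.5% of all genes in either fit. The call of Rhoc was lost in 9 of 26 alternative fits. Among these were the fit of 14 arrays, those without either untreated array of either genotype, and that without the second wild-type 2-week array. Leaving out the first wild-type 2-week array left 2 called, Itga8 and Rhoc, against 24.7% of all genes.

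In the knockout at 2 weeks none of the 8 passed, where 33 of 30142 genes did (0.109%), and none had an unadjusted p under 0.05. On the first array 7 of the 8 genes, all but Cnn1, lay at least 0.27 below the second, by as much as 2.50 for Myl9, 2.06 for Pdgfrb and 2.04 for Acta2. Cnn1 lay 0.26 below. The sign of the difference from untreated turned with the array left out for all of the 8 genes but Rhoc, as for Acta2, at 1.55 without the first and −0.50 without the second. Rhoc was the one gene with both arrays above the untreated pair, as were 19.8% of all genes. The response of the knockout minus that of wild type at 2 weeks was −1.39 ± 0.82 for Acta2 (adjusted p = 0.69), −1.29 ± 0.96 for Myl9 (adjusted p = 0.72) and −1.01 ± 0.74 for Pdgfrb (adjusted p = 0.72). Without the first knockout array these became −0.37 ± 0.62, −0.05 ± 0.69 and 0.02 ± 0.47. No gene of 30142 (0.0%) was called for a difference of responses at any time in limma. At 2 weeks 2244 had an unadjusted p under 0.05 in limma, none of them among the 8. At 18 hours this comparison cannot decide, since the array numbered 2 in each genotype carried the pattern of the other.

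Pdgfrb is the receptor through which platelet-derived growth factors B and D act on mesangial cells. It read 10.95 and 10.93 on untreated wild-type arrays, 10.02 and 9.30 at 18 hours, 11.36 and 10.91 at 6 days, and 11.75 and 11.76 at 2 weeks. Knockout arrays read 10.13 and 10.25, 9.16 and 9.25, 10.23 and 11.13, and 8.96 and 11.02. Its lowest pair of groups was that of 18 hours, and the wild-type 2-week pair was the highest, above every other array. At 18 hours Pdgfrb differed from untreated by −1.13 ± 0.37 (95% interval −1.95 to −0.32), the only one of the 8 genes with all 4 arrays at 18 hours below all 4 untreated, as were 1.59% of all genes. It did not pass (limma adjusted p = 0.99), and neither did any gene (0.0%). An unadjusted p under 0.05 was reached by 1266 genes (4.2%), of the 8 by Pdgfrb alone. Within wild type it was again Pdgfrb alone (3.93% of all genes), at −1.28 ± 0.53, and within the knockout none of the 8 (4.03%), with Pdgfrb at −0.99 ± 0.53. Over 14 arrays the difference was −0.98 ± 0.48. Marker lists at 18 hours, with both genotypes averaged, held no called gene. Of 9 endothelial markers 7 lay below 0 and 2 above, with a median of −0.47. Of 8 fibroblast genes 7 lay below and 1 above (median −0.27), and of 6 podocyte markers 4 below and 2 above (median −0.18). The median was −0.04 over 8 proximal tubule markers and 0.02 over all genes. The part of tissue makeup in the difference of Pdgfrb was not tested.

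Itga8 encodes integrin alpha 8, which in the glomerulus is a mesangial surface protein and which is required for kidney development. It read 9.94 and 9.19 untreated, 9.01 and 8.61 at 18 hours, 10.38 and 9.88 at 6 days, and 10.49 and 11.60 at 2 weeks in wild type. In the knockout it read 8.64 and 9.01, 8.55 and 8.79, 9.01 and 9.75, and 8.28 and 10.16. Each wild-type pair except that of 18 hours lay above the untreated knockout pair. At 6 days Itga8 differed from untreated by 0.56 ± 0.39 and Pdgfrb by 0.34 ± 0.37 (limma adjusted p = 0.69 and 0.86), the least of the 8 genes after Cnn1.

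Itga8, Pdgfrb and Myl9 had the largest differences between genotypes, each with a lower mean in the knockout, and none passed. Averaged over the 4 times, knockout minus wild type was −0.86 ± 0.28 for Itga8 (limma adjusted p = 0.30), −0.85 ± 0.26 for Pdgfrb (adjusted p = 0.29) and −0.85 ± 0.34 for Myl9 (adjusted p = 0.37). For Rhoc it was 0.13 ± 0.15, and for Cnn1 −0.01 ± 0.06. No gene of 30142 was called (0.0%), while 3514 (11.7%) had an unadjusted p under 0.05, as did 5 of the 8: Acta2, Myl9, Des, Pdgfrb and Itga8. The median of the 8 genes was −0.59, against −0.01 over all. Beside it, the median was −0.62 over 6 podocyte markers and −0.59 over 9 endothelial markers, all below 0 and none called. That of 8 proximal tubule markers was 0.25. Of 11 other mesangial and pericyte genes 9 lay below 0 and 2 above, with a median of −0.29. None of those 11 was called, and 5 had an unadjusted p under 0.05 in limma. The part of tissue makeup in the genotype differences of the 8 genes was not tested. Over 14 arrays 519 genes were called (1.72%) and over 13 arrays 786 (2.61%), none of them among the 8. The 18-hour arrays numbered 2 were left out because genes that separate the genotypes sat with the other genotype there, so genotype differences without them are conditioned on that choice. Pdgfrb came closest, at −0.70 ± 0.16 over 13 arrays (adjusted p = 0.069). Leaving out the second knockout 2-week array, which keeps the one that stood apart, led to 5 calls, Acta2, Myl9, Des, Pdgfrb and Itga8, where 7.29% of all genes were called.

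At 2 weeks the genotype difference was −1.83 ± 0.55 for Itga8 (limma adjusted p = 0.15), −1.76 ± 0.53 for Pdgfrb (adjusted p = 0.15), −1.63 ± 0.68 for Myl9 (adjusted p = 0.23) and −1.54 ± 0.58 for Acta2 (adjusted p = 0.20). Medians over the markers were −0.75 for podocytes, −1.06 for endothelium and 0.78 for the proximal tubule, with none called in these lists. Over 11 other mesangial and pericyte genes it was −0.44, also with none called. Of 10 macrophage markers 3 were called lower in the knockout over 16 arrays (Lyz2, Tyrobp and Ccr2, list median −0.73). So was Ncam1 of 6 parietal epithelium markers (list median −0.92). Both comparisons include the knockout array that stood apart. None of the 8 was among the 55 genes called (0.182%), although Acta2, Myl9, Des, Pdgfrb and Itga8 had an unadjusted p under 0.05 (19.4% of all genes). Acta2, Tagln, Des, Pdgfrb and Itga8 had both knockout arrays below both wild-type arrays, as did 22.8% of all genes. Without the first knockout 2-week array the differences became −0.89 ± 0.48 for Itga8, −0.73 ± 0.36 for Pdgfrb, −0.39 ± 0.53 for Myl9 and −0.52 ± 0.48 for Acta2. Without the second knockout 2-week array 6 of the 8 were called, all but Cnn1 and Rhoc, against 17.7% of all genes. Without the first wild-type 2-week array Itga8 alone was, against 14.9%. In untreated mice the marker medians were −0.80 for podocytes, −0.39 for endothelium and 0.16 for the proximal tubule, with none called. For the other mesangial and pericyte genes the median was −0.28, also with none called. The genotype difference there was −0.74 ± 0.53 for Pdgfrb (95% interval −1.90 to 0.41) and −0.74 ± 0.55 for Itga8 (−1.96 to 0.48). None of the 3 doubted arrays is an untreated one, but they enter these errors through the shared spread, and over 13 arrays the SE for Pdgfrb was 0.28. None of the 8 was called between the genotypes in untreated mice or at 18 hours (0.0% of genes each) or at 6 days (0.00664%). None had an unadjusted p under 0.05 at those times over 16 arrays, where 5.19%, 2.35% and 4.83% of all genes did. In limma fits without the first knockout 2-week array, Pdgfrb in untreated mice (unadjusted p = 0.030, and 0.026 over 13 arrays) and Myl9 at 6 days (unadjusted p = 0.039) did. Neither passed after adjustment. At 18 hours the labelled groups cannot decide whether the genotypes differed, because the array numbered 2 in each genotype carried the pattern of the other.

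**Figure D3:**
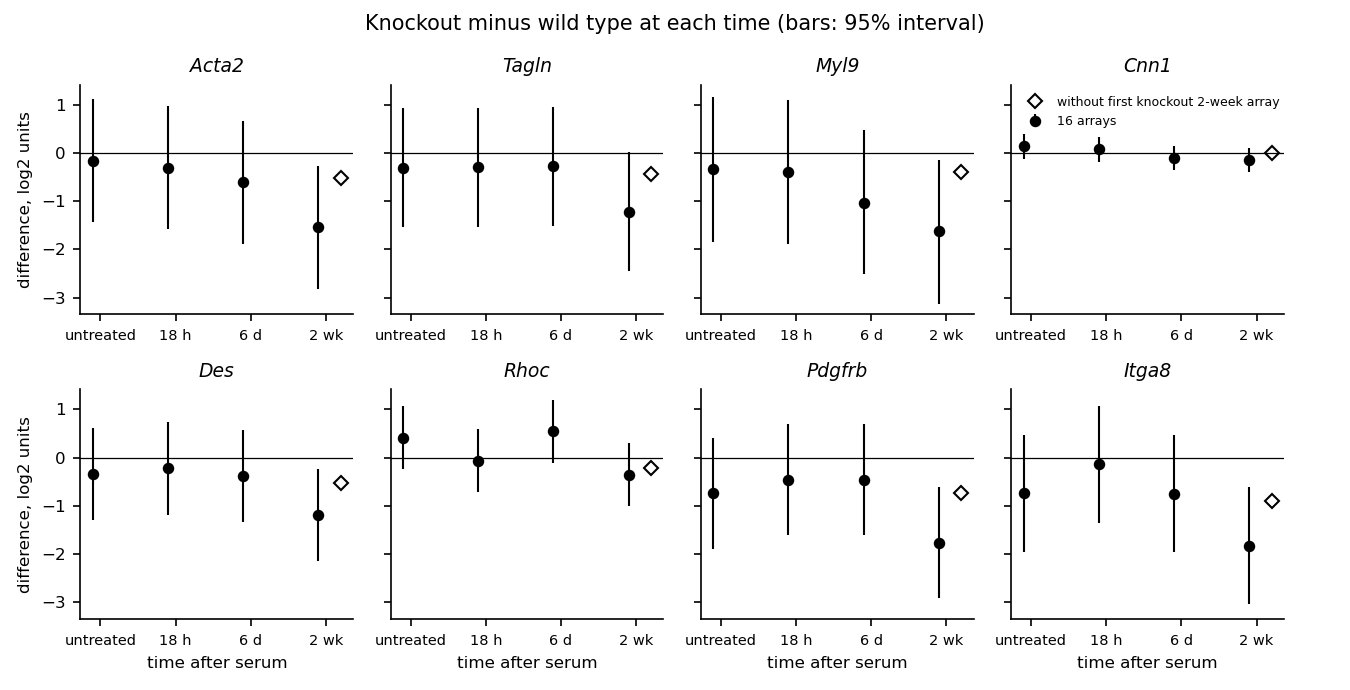
Knockout minus wild type in log2 units (y axis, the same for all panels) for each gene at each time (x axis). Circles are the fit of 16 arrays with 95% intervals, and open diamonds the 2-week difference without the first knockout array, drawn without its error. At 2 weeks Pdgfrb stood at −1.76 and Itga8 at −1.83, and both differences were smaller without that array, at −0.73 and −0.89.

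The platelet-derived growth factor genes as a family moved in both directions at 2 weeks. Of the 4 platelet-derived growth factor genes, Pdgfd rose by 0.81 ± 0.17 (limma adjusted p = 0.022) and Pdgfc fell by 0.98 (SE 0.17, adjusted p = 0.014) with both genotypes averaged. Both calls held over 14 arrays (adjusted p = 0.045 and 0.033). Pdgfb, the endothelial ligand that mesangial cells need, differed by 0.83 ± 0.26 (adjusted p = 0.069) and was called over 13 arrays at 1.19 ± 0.16. In wild type Pdgfb rose by 1.35 ± 0.37 (adjusted p = 0.049), Pdgfd rose as well (adjusted p = 0.032), and Pdgfc fell by 1.03 (adjusted p = 0.030), but over 14 arrays none of these 3 wild-type calls held (adjusted p from 0.058 to 0.087). At 6 days none of the 4 was called over 16 arrays.

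Integrin alpha 8 pairs with integrin beta 1 and binds matrix proteins, and 5 genes of this group were measured. At 6 days Itgb1, the partner, rose by 1.55 ± 0.28 (limma adjusted p = 0.037) and Tnc, the matrix protein tenascin C, by 1.98 ± 0.39 (adjusted p = 0.046), and none fell. Tnc was also called at 2 weeks (1.90 ± 0.39, adjusted p = 0.021) and in wild type at 2 weeks (3.14 ± 0.55, adjusted p = 0.016). The calls at 6 days were lost over 14 arrays (adjusted p = 0.089 and 0.10) and held over 13, while the 2-week calls of Tnc held over 14.

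Between genotypes none of these 5 was called over 16 arrays. Npnt and Fn1, each with a lower mean in the knockout than in wild type, are named here after their values were seen. Npnt encodes nephronectin and Fn1 fibronectin, matrix ligands of integrin alpha 8. Npnt read 11.26 and 11.03 on untreated wild-type arrays, 11.97 and 11.61 at 6 days and 11.93 and 12.01 at 2 weeks, against 9.83 and 9.99, 10.37 and 10.66, and 9.40 and 11.15 in the knockout. At 18 hours it read 11.96 and 10.09 in wild type and 9.94 and 11.46 in the knockout. Outside 18 hours every wild-type array read above 11 and all but 1 knockout array below, and at 18 hours the arrays numbered 2 sat with the other genotype. The difference of Npnt averaged over times was −1.13 ± 0.33 over 16 arrays (limma adjusted p = 0.27), and that of Fn1 was −1.88 ± 0.45 (adjusted p = 0.25). Over 14 arrays they were −1.56 ± 0.25 and −2.41 ± 0.38, given with no test because the arrays left out were chosen for values that separate the genotypes.

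Among 19 cofactors and targets of serum response factor, 17 had differences above 0 at 6 days and the median was 0.48. Tpm1, a tropomyosin that lies along actin filaments, was the only one called (1.03 ± 0.20, limma adjusted p = 0.043). Over 14 arrays none was called. Srf itself differed by 0.56 ± 0.14 (adjusted p = 0.10) at 6 days and by 0.09 ± 0.14 (adjusted p = 0.69) at 2 weeks. At 2 weeks Tpm1 (1.12 ± 0.20), Vcl (1.11 ± 0.31) and Filip1l (0.25 ± 0.07) were called, and Tpm1 alone held over 14 arrays (adjusted p = 0.037). In wild type at 2 weeks the same 3 and Actg2, the enteric smooth muscle actin, rose, Vcl by 1.68 ± 0.44, Tpm1 by 1.54 ± 0.28, Filip1l by 0.45 ± 0.10 and Actg2 by 0.38 ± 0.09, and over 14 arrays Tpm1 alone was called. The median difference of all genes in wild type at 2 weeks was 0.13. Myocd, the muscle-specific cofactor, differed by 0.07 ± 0.09 at 6 days and 0.17 ± 0.09 at 2 weeks with both genotypes averaged, neither called.

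Of 5 filament partners of desmin, Vim and Lmna rose at 6 days. Vim encodes vimentin, the intermediate filament protein of mesenchymal cells. It read 8.95, 8.30, 7.74 and 8.21 on the untreated arrays and 11.56, 12.34, 11.16 and 12.30 at 6 days, wild type first, with no overlap. The rise was 3.54 ± 0.57 (limma adjusted p = 0.028), close in size to that of Tagln, and Lmna, the lamin A gene, rose by 0.79 ± 0.12 (adjusted p = 0.022). Over 14 arrays neither was called (adjusted p = 0.071 and 0.068). At 2 weeks none of the 5 was called over 16 arrays, where Vim (2.00 ± 0.57, limma adjusted p = 0.052) and Nes (1.36 ± 0.53, adjusted p = 0.12) differed most.

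Of 11 transforming growth factor beta genes, Ltbp1, which stores the latent factor in matrix, rose at 6 days (0.82 ± 0.16, limma adjusted p = 0.043). Tgfb1 rose at 2 weeks (0.90 ± 0.25, adjusted p = 0.047). In wild type at 2 weeks Tgfb1 (1.29 ± 0.35), the receptor gene Tgfbr2 (1.21 ± 0.33) and Smad2 (0.57 ± 0.15) were called. All of these calls were lost over 14 arrays. Among 7 other members and cofactors of the GATA family none was called with both genotypes averaged. Gata2 (0.36 ± 0.12) and Zfpm1 (0.25 ± 0.07) had the largest differences at 2 weeks. In wild type at 2 weeks Gata6 (0.36 ± 0.09, adjusted p = 0.040) and Zfpm1 (0.38 ± 0.10, adjusted p = 0.045) were called, and neither was over 14 arrays (adjusted p = 0.074 and 0.087). On wild-type arrays these 7 genes averaged 5.58 untreated and 5.87 at 2 weeks. The array medians over all measured genes were 5.94 and 5.96 untreated and 6.09 and 6.22 at 2 weeks, so the list lay low. The median difference of all genes in that comparison was 0.13. In the knockout at 2 weeks, and between genotypes over 16 arrays, no gene of these pathway lists was called.

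Over the 16 arrays, podocyte and endothelial markers varied in the same direction as these genes, and proximal tubule markers in the opposite direction. The mean of 6 podocyte markers ran from 9.14 to 10.50 on untreated arrays, 9.77 to 11.20 at 6 days and 9.15 to 10.94 at 2 weeks. The mean of 9 endothelial markers ran from 9.60 to 10.39, 9.89 to 11.15 and 8.97 to 11.27. Tubule markers were also read in these glomerular extracts, and the mean of 8 proximal tubule genes ran from 16.05 to 16.55 untreated, 15.64 to 16.38 at 6 days and 13.89 to 16.26 at 2 weeks. At 2 weeks 5 of those 8 fell (Lrp2, Cubn, Slc5a2, Slc22a6 and Aqp1), with a list median of −1.61, and over 14 arrays Slc22a6 alone did. On the knockout 2-week array that stood apart, proximal tubule markers averaged 16.26 against 14.64 on its partner, podocyte markers 9.15 against 10.91, and endothelial markers 8.97 against 10.78.

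At 6 days the median of the 8 genes, 1.37, stood beside smaller medians of other lists. The median over 11 other mesangial and pericyte genes was 0.18, over 7 arteriolar smooth muscle genes 0.07 and over 8 fibroblast genes 0.10, with none called in any of these lists. Over the 16 arrays these lists averaged 7.32, 6.27 and 6.23, where array medians over the measured genes ran from 5.92 to 6.22. Low signal may limit the differences that such lists can show. Members and lists were chosen with earlier results of these data known. For podocyte markers the median was 0.80 and for endothelial markers 0.65, also with none called, and no test compares these lists with the 8 genes. At 2 weeks, with both genotypes averaged, Col1a1 and Col3a1 of the fibroblast list rose and Dcn fell, and 6 of 10 macrophage markers rose. Over all 30142 genes 2815 were called there, 1536 of them higher. Over 14 arrays Col3a1 and 2 of those macrophage calls were lost. In wild type alone 7 of the 10 macrophage markers rose at 2 weeks, as did Col1a1, Col1a2 and Col3a1, where 2424 of all genes were called. In the knockout, whose pair includes the array that stood apart, no gene of either list was called, where 33 of all genes were. The part of tissue makeup in the differences of the 8 genes was not tested.

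Across the 16 arrays some of the 8 genes varied together more than others. Correlations are given as a description over arrays that share their dissection and their group effects. Acta2, Myl9 and Des went together (r = 0.93 for Acta2 with each of the others and 0.97 between Myl9 and Des), Tagln went with Rhoc (r = 0.91), and Pdgfrb with Itga8 (r = 0.90). Rhoc with Pdgfrb, and Rhoc with Itga8, had r = 0.35, the lowest of the pairs. Itga8 had r = 0.91 with the podocyte mean, 0.92 with the endothelial mean and −0.75 with the proximal tubule mean. For Des these were 0.90, 0.93 and −0.65. Rhoc had 0.43, 0.46 and −0.26, and Tagln 0.57, 0.59 and −0.27. The 2 genes called at 6 days had the smallest correlations with these marker means. Their own 6-day values enter these correlations, and the part of tissue makeup was not tested.

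**Figure D4:**
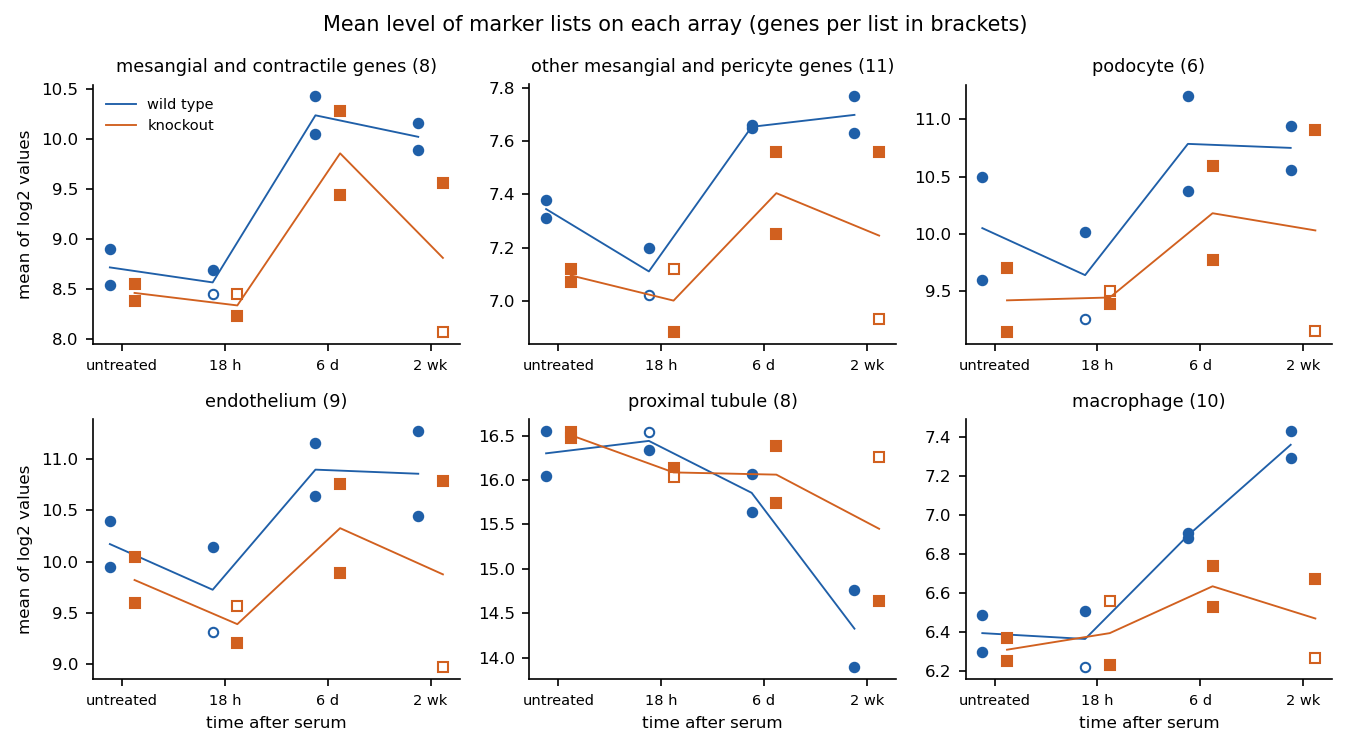
Mean of the log2 values of each list on each array (y axis, scaled separately for each panel) by time after serum (x axis), with symbols as in the plot of the single genes. Of the knockout 2-week pair, the first array had the lower podocyte (9.15) and endothelial (8.97) means and the higher proximal tubule mean (16.26), and the 8 genes averaged 8.07 there against 9.56 on the second.

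The genes whose values over the 16 arrays were most like those of Acta2, among 10542 named genes with a mean above the median gene (predicted transcripts, small RNAs, pseudogenes and receptor families left out), were Rsu1 (r = 0.979), Cald1 (r = 0.976), Gnai2 (r = 0.976), Fstl1 (r = 0.976) and Pea15a (r = 0.975). Cald1 encodes caldesmon, an actin-binding regulator of smooth muscle contraction. For Pdgfrb they were S1pr3 (r = 0.972), Meis2 (r = 0.971), Mxra8 (r = 0.970), Epas1 (r = 0.964) and Adamts5 (r = 0.963). S1pr3 encodes a sphingosine-1-phosphate receptor. The 2 sets share no gene.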

How the data were processed

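RNA of 16 arrays was analysed, 2 for each of 8 groups taken from the labels. The authors deposited log2 values for 72688 probesets. The submitters' processing notes name the Transcriptome Analysis Console and the Expression Console of Affymetrix. No source used here gives versions, the method of summarisation or the build of the annotation. For 152 genes the mean exceeded the log2 of the largest value of a 16-bit scanner, so a further transformation is present. Array medians ran from 5.57 to 5.90.

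Probesets with exactly 1 symbol (30604) were kept, 2146 had several and 39938 none. Symbols of 827 were updated through the Entrez identifier. The brightest probeset stood for each of 355 genes with several, which left 30142 genes, with no filter on brightness. In limma 3.58.1 (R 4.3.3), 8 group means were fitted over 16 arrays (8 residual degrees of freedom), with eBayes and an intensity trend, and 17 comparisons were made. Adjustment was by Benjamini-Hochberg within a comparison, over all genes, and p-values measure the spread between mice of a group. The fit was tested on simulated data. Promoters are RefSeq's (GRCm38.p6).

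The members and gene lists were chosen with earlier results of these data known. One further list is not reported here. Named were all members, from each pathway list the called genes (up to 4 by size per comparison) or, where none was called, the 2 with the largest 2-week difference, the 5 genes most like Acta2 and Pdgfrb, and Esr1. Srf, Myocd, Npnt, Fn1, Abcc3, Havcr1 and, where the list had other calls, Pdgfb were named outside that rule after their values were seen. Alternatives changed the filter, probeset, normalization, centring, variance trend, arrays fitted and replicate term, or left out each array. The fits of 14, 13 and 12 arrays were chosen after seeing the data.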

Additional observations from a re-analysis of the deposited data

How the results depend on the processing

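Of 2046 values recomputed for 80 differences of single genes, 1932 kept their direction and their side of the threshold, 21 lost it, 66 gained it and 27 changed sign, none of them passing the threshold on either side. In the knockout at 2 weeks the range over single arrays left out was −0.50 to 1.55 for Acta2, −0.32 to 1.24 for Tagln, −0.41 to 2.09 for Myl9, −0.08 to 0.18 for Cnn1, −0.40 to 0.94 for Des, −1.23 to 0.83 for Pdgfrb and −0.54 to 1.33 for Itga8. There Cnn1 was −0.07 with quantile normalization and with median centring, and Pdgfrb 0.83 over 13 arrays. Pdgfrb ran from −0.21 to 0.82 at 2 weeks averaged over genotypes, from −0.02 to 0.42 in wild type at 6 days, and its difference of responses at 2 weeks from −2.04 to 0.02 (0.02 over 13 arrays). Myl9 at 18 hours ran from −0.10 to 0.23, and Cnn1 from −0.07 to 0.12 in the knockout at 6 days and from −0.04 to 0.02 between genotypes, where it was 0.00 with median centring, 0.01 over 14 and 0.04 over 13 arrays. Of 435 counts of members called, 394 stayed within 1.5 times. The count at 6 days (2) was 4 with only the groups compared and 4 over 13 arrays. The count at 2 weeks (1) was 0 with median centring, with only the groups compared, over 14 arrays and over 12 arrays (no 18-hour array), and 7 over 13 arrays. In wild type at 2 weeks (1) it was 0 with median centring, over 14 and over 12 arrays, and 3 over 13. In the knockout at 6 days (0) it was 2 with only genes above the median gene, 2 over 13 arrays, and 1 with the replicate block. Leaving out single arrays gave 0 to 5 at 6 days, 0 to 7 at 2 weeks, 0 to 2 in wild type at 6 days, 0 to 5 in wild type at 2 weeks, 0 to 2 in the knockout at 6 days, 0 to 5 between genotypes on average and 0 to 6 between genotypes at 2 weeks. For the loss over 12 and 14 arrays fewer arrays were fitted, and otherwise the cause was not tested.

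Counts over all genes moved too, so the counts of members above are not read as results about the members. At 6 days 268 were called, against 68 with median centring, 497 of 15071 above the median gene, 1139 with only the groups compared, 32 over 14, 33 over 12 and 804 over 13 arrays. At 2 weeks 2815 were called (1536 higher and 1279 lower), against 4217 (605 and 3612) with median centring, 2843 (1044 and 1799) above the median gene, 1895 (673 and 1222) after quantile normalization, 3 with only the groups compared, 1234 over 14 and over 12 and 5826 over 13 arrays. In wild type at 2 weeks 2424 (1450 and 974) became 3266 (538 and 2728) with median centring and 1097 (486 and 611) after quantile normalization. The median of all genes there moved from 0.13 to −0.09 with centring, and Rhoc from 1.26 to 1.04.

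Replicate numbers did not pair the mice: deviations of same-numbered arrays correlated from −0.679 to 0.593 over 28 pairs of groups, 11 of them above 0.1. With the replicate number as a block, Acta2 at 6 days passed (adjusted p = 0.046) and Rhoc in the knockout at 6 days passed (adjusted p = 0.033). With 2 mice a group, a missed threshold does not show that groups were alike.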

Other observations

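For the members other than Acta2 and Pdgfrb, the genes most alike over the 16 arrays, looked up after the data were seen, belonged to different kinds. For Rhoc they were Cfl1 (r = 0.962), Pcna (r = 0.954), Ddx21 (r = 0.945), Hmgb2 (r = 0.939) and Kpna2 (r = 0.931), of which Pcna encodes the sliding clamp of DNA replication. For Des the first was Emcn (r = 0.982), an endothelial surface gene, and for Itga8 the first was Adamts5 (r = 0.978), which also stands among the 5 most like Pdgfrb. For Tagln the first was Emp3 (r = 0.968) and for Myl9 Map1b (r = 0.981). Cnn1, with its narrow range, had a highest r of 0.878, with Skp2. These are values over arrays that share groups and dissection, with no test.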
